A study of Mus musculus with 21 samples.

Results

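The genes described here are the Eph receptors, ephrins, semaphorins, plexins, netrins, Slits and Robos of the mouse, the cue and receptor families of axon guidance. They were chosen by symbol alone (Epha, Ephb, Efna, Efnb, Slit, Robo or Ntn plus a number, Sema plus a number and a letter, Plxn plus a letter and a number), which gave 62 of the 23412 gene symbols in the count files. Of these, 58 passed edgeR's filter for enough counts, among 14963 genes that did. The 4 that did not were *Epha3*, *Epha5* and *Epha6*, with raw counts between 0 and 4 in every library, and *Sema3a*, with raw counts between 1 and 16.

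The RNA came from mouse embryonic stem cells (mESCs) of the v6.5 line in 7 conditions with 3 libraries each, and poly-A RNA was sequenced to ask how loss of the PDS5 and STAG subunits of cohesin alters transcription. Wild-type (WT) mESCs received siGLO, a control siRNA with no target, or siPds5b. *Pds5b*-/- mESCs received siGLO, and *Pds5a*-/- mESCs received siGLO, siPds5b (dual depletion of both PDS5 proteins), siStag1 or siStag2. All cells had been given 50 nM siRNA 48 h before collection and carried no other allele that the labels name. Each knockout is 1 CRISPR clone, from which all its replicates were grown. Effects of the clone and of the gene therefore cannot be told apart. The p-values measure only the spread between libraries of the same condition, estimated over all 7 conditions, and not the spread between clones.

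Eph receptors are receptor tyrosine kinases that bind ephrins on neighbouring cells, with signals passing into both cells. Semaphorins signal through plexins, in class 3 together with neuropilins. Netrins attract or repel axons through DCC and UNC5 receptors, and Slits repel them through Robo receptors. All of these families also act outside the nervous system, in cell sorting, migration and the formation of vessels.

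Libraries held 17311090 to 23989198 counts. *Pds5b* transcripts were at 12.4% of WT siGLO in *Pds5b*-/- mESCs, at 34.9% after siPds5b in WT and at 38.2% of *Pds5a*-/- siGLO after siPds5b in *Pds5a*-/- mESCs. *Stag1* was at 23.7% after siStag1 and *Stag2* at 26.9% after siStag2, while the transcript of *Pds5a* was at 84.4% of WT in *Pds5a*-/- siGLO (edgeR adjusted p = 0.0415), which does not check edits that leave the transcript in place. The 8 pluripotency markers, *Pou5f1* and *Sox2* among them, were all expressed. Their summed normalized counts were between 135685 and 145583 in WT siGLO, 107300 and 119949 in *Pds5a*-/- siGLO, 99279 and 115220 in *Pds5b*-/- siGLO, and 91091 and 100441 after dual depletion. Most of each sum was *Tdgf1*, *Dppa5a* and *Pou5f1*, and single markers differed. *Klf4* was between 3269 and 3472 in WT siGLO and between 573 and 657 after dual depletion. *Nanog* was between 9922 and 10935 and between 2602 and 3594. *Tdgf1* was between 36496 and 42792 and between 32252 and 37857, which overlap. The summed counts of 7 trophoblast markers were between 3841 and 4161 in WT siGLO. They were between 12467 and 34297 in *Pds5a*-/- siGLO, between 5735 and 10131 in *Pds5b*-/- siGLO and between 12858 and 33427 after dual depletion, and replicate 1 was the lowest in each of these conditions. Most of each sum was *Krt8* and *Krt18*. Raw counts of *Krt8* were 2050, 1468 and 2097 in WT siGLO and 5997, 19535 and 18537 in *Pds5a*-/- siGLO. The other markers differed in direction. Raw counts of *Cdx2* were 5, 11 and 16 in WT siGLO and 30, 41 and 44 in *Pds5a*-/- siGLO. Those of *Eomes* were 401, 514 and 701 against 171, 253 and 229. Of the 9 neuronal markers 8 were tested, of which 3 rose and 1 fell in *Pds5a*-/-, 2 rose and 1 fell in *Pds5b*-/-, and 2 rose (*Map2*, *Elavl3*) and 2 fell (*Tubb3*, *Stmn2*) after dual depletion. Their sum, most of it *Stmn2*, was between 8991 and 10117 in WT siGLO and between 4193 and 4716 after dual depletion. The 6 neuroectoderm markers summed to between 2113 and 2808 in WT siGLO and 1242 and 1582 in *Pds5a*-/- siGLO. They were between 2535 and 2714 in *Pds5b*-/- siGLO and 1230 and 1426 after dual depletion. In *Pds5b*-/- siGLO normalized counts of *Sox1* were between 637 and 1051, against 278 to 313 in WT siGLO. Those of *Nes* were between 1287 and 1589, against 1583 to 2373. The 7 fibroblast markers, of feeder cells, summed to between 1068 and 1493 in WT siGLO, 333 and 1396 in *Pds5a*-/- siGLO, 305 and 432 in *Pds5b*-/- siGLO and 442 and 1305 after dual depletion. The 6 primitive endoderm markers summed to between 761 and 1262 in WT siGLO and 783 and 1694 in *Pds5a*-/- siGLO. Their sums were between 1277 and 2321 in *Pds5b*-/- siGLO and 840 and 1511 after dual depletion. Genes of chromosome 8 were shifted in the knockout clones. Their median log2 fold change was -0.19 in *Pds5a*-/-, 0.29 in *Pds5b*-/- and -0.48 between the knockouts, where 54.5% of its 778 tested genes were called, and they are part of the all-gene shares given below. The part that these shifts have in the changes of guidance genes was not tested.

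Levels in WT siGLO mESCs were compared between genes per kilobase of exon. *Epha2*, a receptor for ephrin-A ligands, was the highest at 637 ± 55.3 normalized counts per kb (SD, n = 3), followed by the plexins *Plxnb2* at 441 ± 54.2 and *Plxna1* at 347 ± 30.7. *Ntn1*, which encodes netrin-1, was at 254 ± 58.7 and *Ephb4*, the receptor of ephrin-B2, at 201 ± 7.45. The spreads of *Ntn1* and *Ephb4* overlap, so their order is not resolved. The highest member per kb was *Efna4* (141 ± 38.8) in the ephrin-A ligands, *Efnb2* (91.9 ± 19.3) in the ephrin-B ligands, *Sema3e* (71.1 ± 5.77) in the class 3 semaphorins and *Sema4b* (150 ± 7.98) in the membrane-bound semaphorins of classes 4 to 7. *Slit3* (36.6 ± 12.8) led the Slits and *Robo1* (20.5 ± 2.09) the Robos. At the other end, the tested members *Robo2*, *Sema3d*, *Ephb1* and *Plxna4* were below 1 normalized count per kb, with *Ephb1* at 0.705 ± 0.437 and *Plxna4* at 0.656 ± 0.148.

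Members were called at an edgeR adjusted p under 0.01, and each count is read against the share of all 14963 tested genes called in the same comparison. In *Pds5a*-/- siGLO relative to WT siGLO, 5 members rose and 6 fell, or 19% of the 58 against 17.8% of all genes (9.63% higher and 8.12% lower). In *Pds5b*-/- siGLO 6 rose and 3 fell (15.5% against 18.2%, of which 9.64% higher and 8.57% lower), and between the knockouts 2 were higher and 6 lower in *Pds5a*-/- (13.8% against 19.2%, of which 9.74% higher and 9.46% lower). After dual depletion 13 rose and 8 fell relative to WT siGLO, 36.2% against 32% (17.4% higher and 14.6% lower). These shares were near those of all genes. The libraries of the 2 conditions did not overlap for any called member, as for 40.8%, 45.3%, 41.1% and 54.3% of all genes in the 4 comparisons in that order. The median log2 fold change of the members was 0.12 in *Pds5a*-/-, 0.04 in *Pds5b*-/- and 0.21 after dual depletion, against 0.00 over all genes in each. Of the calls, 3 of 11 in *Pds5a*-/-, 3 of 9 in *Pds5b*-/- and 13 of 21 after dual depletion held in every one of the 12 alternative fits, and no call changed direction. The count fell to 6 without WT siGLO replicate 3, 4 without *Pds5a*-/- siGLO replicate 2 and 7 without its replicate 3 in *Pds5a*-/-. In *Pds5b*-/- it fell to 4 without WT siGLO replicate 2, 4 without its replicate 3, 5 without *Pds5b*-/- replicate 1 and 4 without its replicate 2.

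By family, the calls were spread widely. Each family holds few genes, and after dual depletion 17.4% of all genes rose and 14.6% fell. After dual depletion 1 of the 6 tested EphA receptors rose and 1 fell, and 2 of 5 EphB receptors rose. Of the ligands, 1 of 5 ephrin-A genes rose and 0 of 3 ephrin-B genes were called. Of 4 Robos 1 rose and 2 fell, 1 of 4 netrins fell, and 0 of 3 Slits were called. The ephrin-B ligands, which signal through EphB receptors, had no call in any comparison with WT siGLO.

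The 3 comparisons with WT siGLO share their control libraries. In the plot of fold changes by family, after dual depletion the netrin *Ntn1* lay at the low end and the Eph receptors *Epha8* and *Ephb1* at the high end.

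**Figure D1:**
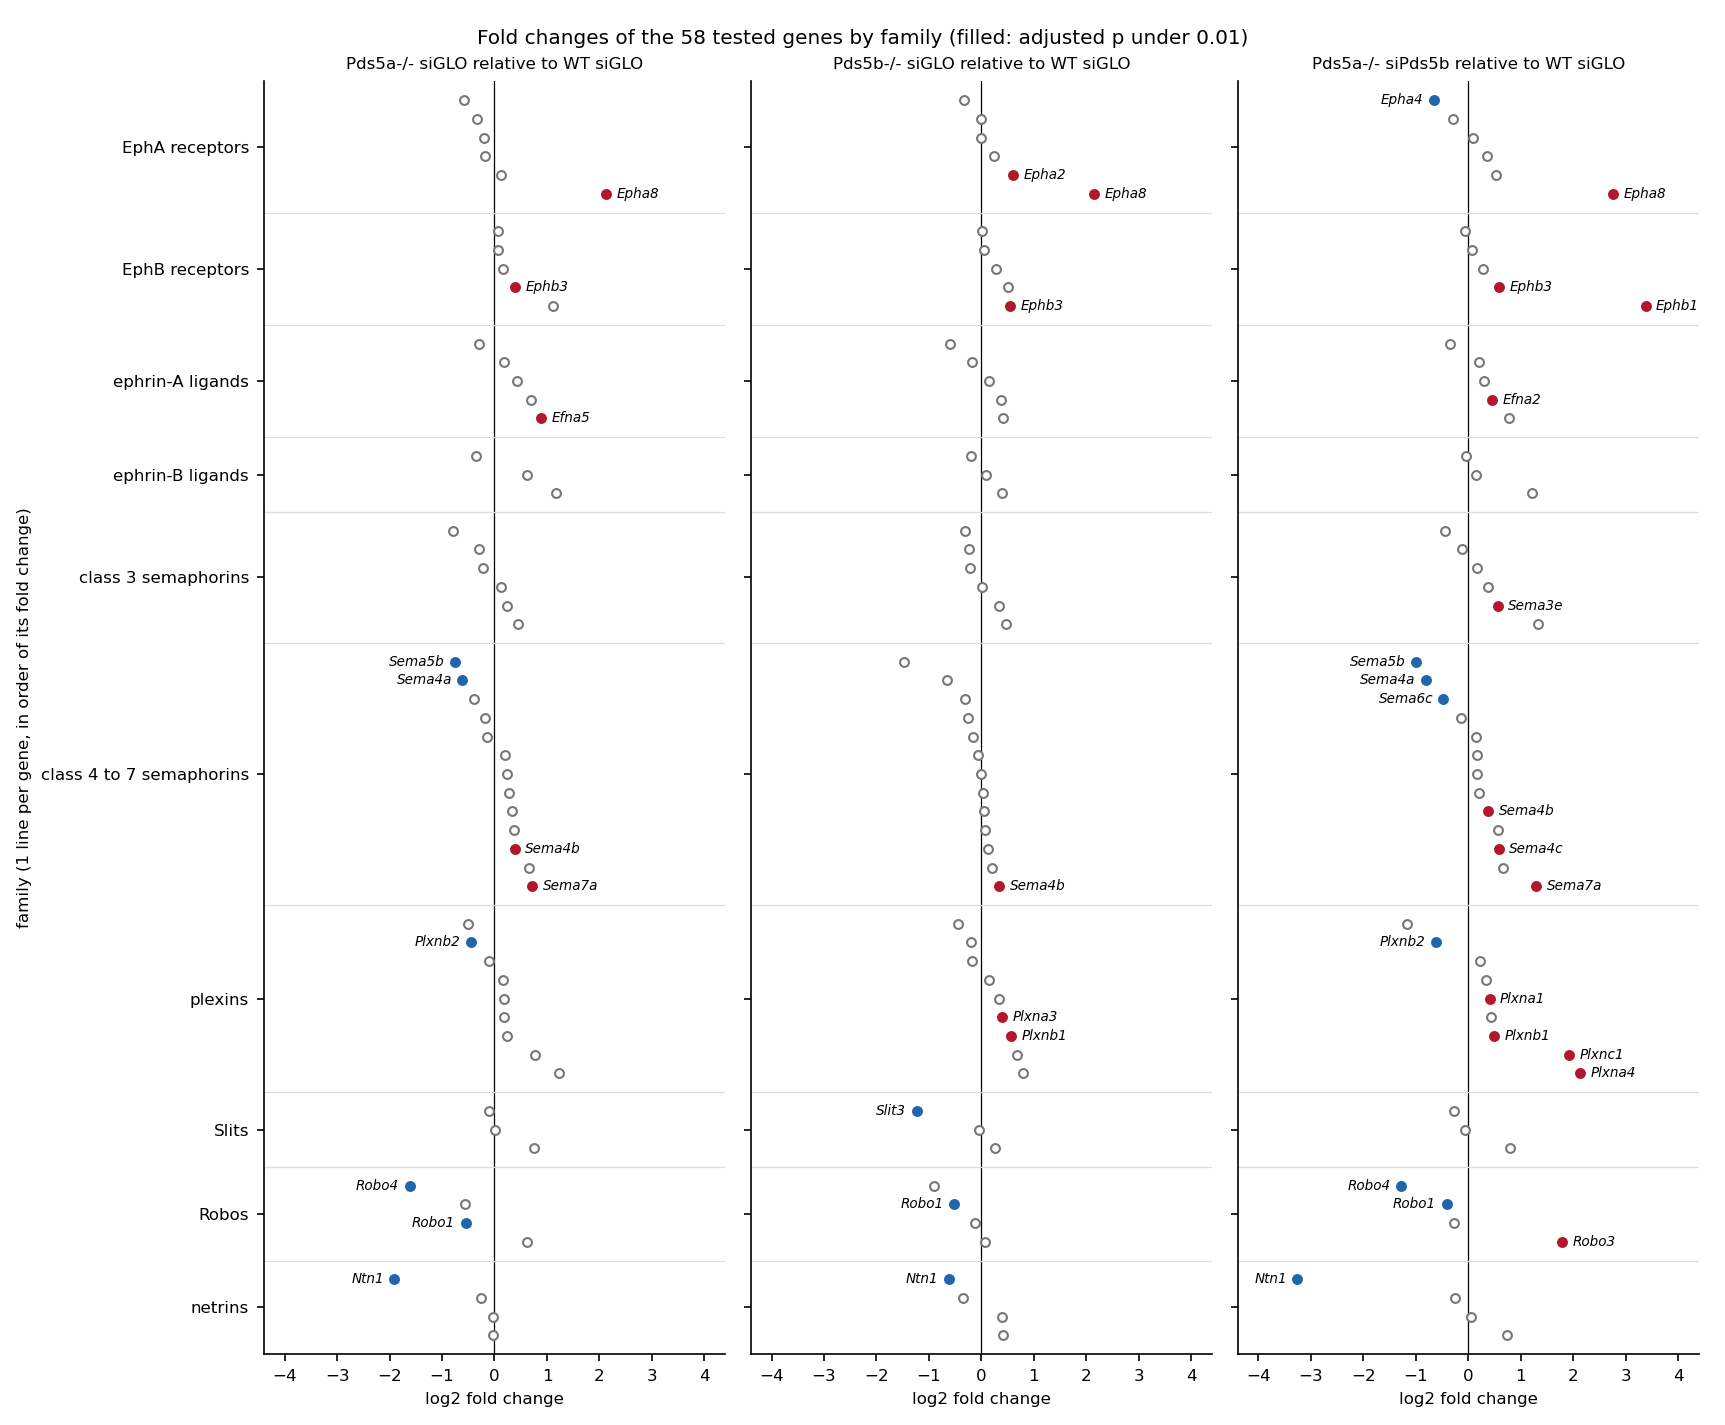
Log2 fold change (horizontal axis) of the 58 tested genes relative to WT siGLO, with 1 line per gene, grouped by family, for *Pds5a*-/-, *Pds5b*-/- and dual depletion. Filled points have an edgeR adjusted p under 0.01, and *Ntn1* moved from -0.62 in *Pds5b*-/- to -3.26 after dual depletion.

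The Eph receptors held the 2 largest increases after dual depletion. *Epha8*, on chromosome 4 from 136929419 to 136956816 on the minus strand, rose in both knockouts and after dual depletion. In WT siGLO its normalized counts were 24.9, 15.8 and 22.3. They were 104, 91.7 and 86.7 in *Pds5a*-/- siGLO and 89.7, 97.7 and 97.1 in *Pds5b*-/- siGLO. After dual depletion they were 165, 112 and 156. No library of these conditions overlapped WT siGLO. The log2 fold changes were 2.13 ± 0.24 (SE, adjusted p = 5.54e-07), 2.15 ± 0.24 (5e-07) and 2.76 ± 0.24 (2.24e-09) in edgeR. Dual depletion against *Pds5a*-/- siGLO gave 0.62 ± 0.20, which was not called (adjusted p = 0.0352). In WT with siPds5b, *Epha8* was at 49.9, 44.6 and 47.1, all above WT siGLO as for 11.2% of all genes without overlap, at 1.14 ± 0.26 on the log2 scale (edgeR adjusted p = 0.254).

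*Ephb1*, a receptor for ephrin-B ligands, was low in all but 1 condition. It is on chromosome 9 from 101922128 to 102354693, on the minus strand. Its normalized counts were 4.3, 2.25 and 8.27 in WT siGLO, and 11.2, 13.1 and 9.64 in *Pds5a*-/- siGLO. They were 43.5, 58 and 62.8 after siPds5b in *Pds5a*-/- mESCs. With siStag1 in *Pds5a*-/- they were 5.81, 17.8 and 7.87, and with siStag2 10.7, 8.03 and 11.2. The dual-depleted libraries thus lay above every other library, and those of *Pds5a*-/- siGLO above those of WT siGLO (1.12 ± 0.53, adjusted p = 0.124, not called). The log2 fold change was 3.38 ± 0.46 against WT siGLO (adjusted p = 2.31e-06) and 2.26 ± 0.41 against *Pds5a*-/- siGLO (0.000462) in edgeR. *Ephb1* has a mean log2 CPM below 0 and was named after its values were seen.

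*Epha4*, which binds ephrins of both classes, behaved differently from *Epha8*. It is on chromosome 1 from 77367185 to 77515088, on the minus strand. Its counts were 363, 359 and 445 in WT siGLO and 391, 412 and 470 in *Pds5a*-/- siGLO, which overlap. With siPds5b they were 431, 443 and 566 in WT but 219, 264 and 257 in *Pds5a*-/- mESCs. In *Pds5a*-/- mESCs they were 265, 318 and 337 with siStag1, which was not called against siGLO, and 201, 201 and 267 with siStag2. All *Pds5a*-/- libraries with siPds5b, siStag1 or siStag2 lay below every WT library. The promoters below are those of these 3 receptors and of the plexin *Plxnc1*, 4 of the members called after dual depletion relative to WT siGLO. The promoter of *Ntn1* was not analysed here.

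The 250 bases upstream of the start of each gene, from RefSeq on GRCm38.p6 and written 5′ to 3′ on the minus strand of the genome, are printed with GC boxes (GGGCGG, or CCGCCC on the other strand) in capitals, and adjoining copies can overlap. The windows are chr4:136956817-136957066, chr9:102354694-102354943, chr1:77515089-77515338 and chr10:94944846-94945095 in the order below.
Epha8: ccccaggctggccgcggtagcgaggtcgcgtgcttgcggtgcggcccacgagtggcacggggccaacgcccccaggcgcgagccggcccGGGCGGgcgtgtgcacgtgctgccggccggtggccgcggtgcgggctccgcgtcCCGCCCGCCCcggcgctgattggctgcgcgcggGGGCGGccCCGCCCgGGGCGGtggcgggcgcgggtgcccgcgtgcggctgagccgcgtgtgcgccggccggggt
Ephb1: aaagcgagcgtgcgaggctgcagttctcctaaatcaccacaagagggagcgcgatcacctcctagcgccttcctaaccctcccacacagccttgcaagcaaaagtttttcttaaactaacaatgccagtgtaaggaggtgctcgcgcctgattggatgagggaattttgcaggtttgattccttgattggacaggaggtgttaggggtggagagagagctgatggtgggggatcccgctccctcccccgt
Epha4: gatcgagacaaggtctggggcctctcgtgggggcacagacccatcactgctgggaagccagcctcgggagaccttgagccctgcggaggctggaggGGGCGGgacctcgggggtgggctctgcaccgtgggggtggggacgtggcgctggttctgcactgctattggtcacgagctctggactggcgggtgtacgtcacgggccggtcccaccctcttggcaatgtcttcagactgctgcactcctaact
Plxnc1: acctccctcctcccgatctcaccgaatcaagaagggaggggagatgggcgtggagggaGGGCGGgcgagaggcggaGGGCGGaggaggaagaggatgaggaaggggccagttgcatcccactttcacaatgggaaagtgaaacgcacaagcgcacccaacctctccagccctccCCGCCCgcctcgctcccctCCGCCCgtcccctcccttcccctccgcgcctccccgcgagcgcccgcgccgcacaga
The GC content was 84% in *Epha8*, 54% in *Ephb1*, 66% in *Epha4* and 68.8% in *Plxnc1*, with 46, 10, 14 and 22 CpG dinucleotides. The median over all 32851 promoter windows of this length was 52.4% and 6, and over the 70 windows of 54 members 64% and 15. GC boxes were counted 6 times in *Epha8*, 0 times in *Ephb1*, once in *Epha4* and 4 times in *Plxnc1*. Of all windows, 32.7% held one, and 40 of the 54 members did in at least 1 window. The TATA box TATAAA was in 12.4% of all windows and in 2 of the 54 members, and in none of the 4 shown. For the core of the CTCF motif only a fixed pattern of letters was searched, without allowing mismatches. It was in 0.0335% of all windows (11 of 32851) and in 0 of the 54 members. The pattern is too rare for its absence to show whether the promoters of the members hold CTCF sites.

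Other Eph receptors changed less. *Ephb3* was at 427, 524 and 480 in WT siGLO and at 754, 732 and 607 in *Pds5b*-/- siGLO, a change of 0.55 ± 0.10 on the log2 scale (edgeR adjusted p = 0.00026). It also rose in *Pds5a*-/- siGLO by 0.39 ± 0.10 and after dual depletion by 0.59 ± 0.10, and the *Pds5a*-/- call was lost in 5 of 12 alternative fits, including without WT siGLO replicate 1 or 3 and without *Pds5a*-/- siGLO replicate 2 or 3. *Epha2* was at 2745, 2927 and 3256 in WT siGLO and at 4437, 4702 and 4384 in *Pds5b*-/- siGLO. It was at 2912, 2753 and 2265 in *Pds5a*-/- siGLO, within or below the WT range. Its log2 fold change was 0.60 ± 0.16 in *Pds5b*-/- and -0.77 ± 0.16 in *Pds5a*-/- relative to *Pds5b*-/- (edgeR adjusted p = 0.00911 and 0.00158), and the first call was lost when any of the 6 libraries was left out. *Ephb4*, the highest EphB gene in WT, was at 942, 964 and 896 in WT siGLO and 1183, 1186 and 1048 in *Pds5b*-/- siGLO, which was not called. *Epha7* was lower in *Pds5a*-/- than in *Pds5b*-/- by a log2 fold change of -0.82 ± 0.21, with 165, 126 and 159 against 296, 260 and 241 normalized counts, a call lost without *Pds5a*-/- siGLO replicate 2 and without *Pds5b*-/- replicate 1 or 2.

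Among the ligands, 1 of 5 ephrin-A genes and 0 of 3 ephrin-B genes were called in *Pds5a*-/-, against 17.8% of all genes. *Efna5* was at 118, 171 and 153 in WT siGLO and at 177, 302 and 339 in *Pds5a*-/- siGLO (log2 fold change 0.90 ± 0.25, edgeR adjusted p = 0.00967). That call was lost in 8 of 12 alternative fits, including when any library other than *Pds5a*-/- siGLO replicate 1 was left out. *Efnb1* was at 107, 126 and 181 in WT siGLO and at 135, 386 and 416 in *Pds5a*-/- siGLO. Replicate 1 of *Pds5a*-/- siGLO lay apart, the library with the lowest trophoblast marker sum there, most of it *Krt8* and *Krt18*. The log2 fold change of *Efnb1* was 1.18 ± 0.40 with an edgeR adjusted p of 0.036. *Efna2* was the ephrin called after dual depletion, at 0.46 ± 0.12 (0.00456), a call lost in 6 of 12 alternative fits, including when any library but *Pds5a*-/- siPds5b replicate 1 was left out. *Efna4*, the highest ephrin-A gene in WT, was called in none of the comparisons, at 155, 247 and 273 in WT siGLO and 215, 302 and 248 in *Pds5a*-/- siGLO. *Efnb2* did not pass the test in any comparison, and was at 479, 692 and 720 in WT siGLO and 515, 500 and 471 in *Pds5a*-/- siGLO. It is the member on chromosome 8, and its -0.44 ± 0.15 between the knockouts (adjusted p = 0.0269) stands beside the median of -0.48 for that chromosome.

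*Ntn1* gave the largest decrease of any member in *Pds5a*-/- and after dual depletion. It is on chromosome 11 from 68209364 to 68400823, on the minus strand. Its normalized counts were 1181, 1709 and 1890 in WT siGLO and 926, 1042 and 1134 in *Pds5b*-/- siGLO. In *Pds5a*-/- siGLO they were 376, 421 and 476, and after dual depletion 139, 151 and 209. These 4 ranges did not overlap. The log2 fold changes against WT siGLO were -0.62 ± 0.15 in *Pds5b*-/- (adjusted p = 0.00342), -1.91 ± 0.16 in *Pds5a*-/- (2.11e-08) and -3.26 ± 0.17 after dual depletion (6e-12) in edgeR. The last is a 9.57-fold decrease. The call in *Pds5b*-/- was lost in 5 of 12 alternative fits, including without WT siGLO replicate 2 or 3 and without *Pds5b*-/- replicate 1 or 2. The remaining netrins, *Ntn3*, *Ntn4* and *Ntn5*, were called in none of the comparisons.

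*Ntn1* also set the level of its family. The summed normalized counts of the 4 netrins were between 1231 and 1947 in WT siGLO, 402 and 546 in *Pds5a*-/- siGLO and 202 and 304 after dual depletion. By contrast, the summed counts of the plexins were between 7121 and 8576 in WT siGLO, 6637 and 8551 in *Pds5a*-/- siGLO and 7537 and 9467 after dual depletion, ranges that overlap.

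**Figure D2:**
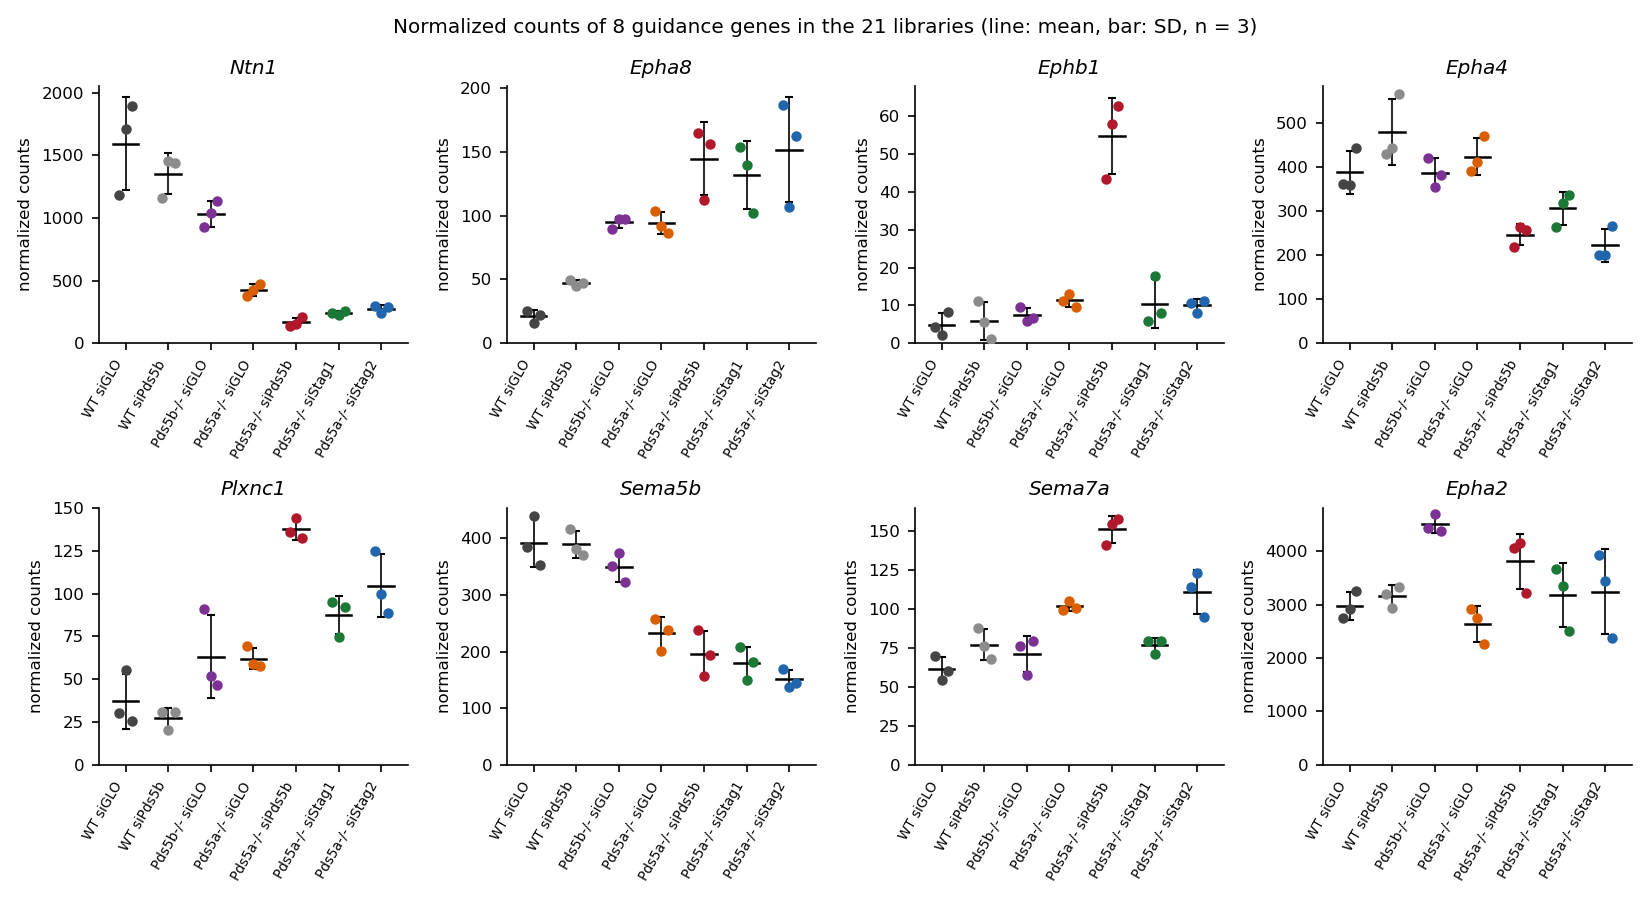
Normalized counts (vertical axes, starting at 0) of 8 genes in the 21 libraries, with 1 point per library, the mean as a line and the SD as a bar (n = 3). *Ephb1* was between 43.5 and 62.8 in the *Pds5a*-/- siPds5b libraries and at most 17.8 in every other library, and *Ntn1* was between 139 and 209 there.

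Of the 4 Robos, receptors for Slits, 2 fell in *Pds5a*-/- and 1 in *Pds5b*-/-, where 8.12% and 8.57% of all genes fell. *Robo1* was at 331, 376 and 308 in WT siGLO, at 234, 207 and 252 in *Pds5a*-/- siGLO and at 235, 262 and 209 in *Pds5b*-/- siGLO. Its log2 fold changes were -0.55 ± 0.12 and -0.52 ± 0.12 (edgeR adjusted p = 0.00111 and 0.00184). The first call was lost without *Pds5a*-/- siGLO replicate 2, the second without WT siGLO replicate 2 or *Pds5b*-/- replicate 3. *Robo4*, known from endothelial cells, was at 98, 69.8 and 53.8 in WT siGLO and at 29.5, 29 and 13.5 in *Pds5a*-/- siGLO, a log2 fold change of -1.62 ± 0.40 (0.0036). The 6 endothelial markers, 1 of which had at most 3 counts in every library, summed to between 1582 and 1793 in WT siGLO and between 1466 and 1594 in *Pds5a*-/- siGLO, most of it *Pecam1*. Of the 4 tested, *Tie1* was called lower (-1.16 ± 0.29, edgeR adjusted p = 0.00441), with a median over the 4 of -0.38. *Tek* went the other way, with raw counts of 265, 125 and 220 in WT siGLO and 322, 232 and 285 in *Pds5a*-/- siGLO, which overlap. After dual depletion, where *Robo4* was also lower, raw counts of *Tie1* were 125, 89 and 91 against 46, 42 and 48 in WT siGLO. The part of such cells in the change of *Robo4* was not tested. The *Robo4* call was lost without WT siGLO replicate 1 and without *Pds5a*-/- siGLO replicate 3.

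*Robo3* is the neighbour of *Robo4* on chromosome 9. After dual depletion relative to WT siGLO it rose by 1.79 ± 0.44 (edgeR adjusted p = 0.0017), while *Robo4* was at -1.28 ± 0.39 (0.00977), a call lost in 7 of 12 alternative fits, including without WT siGLO replicate 1 or 2 and without *Pds5a*-/- siPds5b replicate 2 or 3. In *Pds5a*-/- siGLO it was at -0.55 ± 0.54 against WT siGLO, which was not called. *Robo3* was low in most libraries and was named after its values were seen, since its mean log2 CPM is below 0. Its counts were 9.14, 3.74 and 5.78 in *Pds5a*-/- siGLO and 45.3, 28 and 21.9 after dual depletion, a change of 2.35 ± 0.47 on the log2 scale (edgeR adjusted p = 0.0011). The call was lost without *Pds5a*-/- siGLO replicate 2 and without *Pds5a*-/- siPds5b replicate 1, and the call against WT siGLO without WT siGLO replicate 1 or 2 or *Pds5a*-/- siPds5b replicate 1. *Robo4* with siPds5b was at 0.34 ± 0.43 against *Pds5a*-/- siGLO, which was not called.

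*Slit3*, a secreted ligand of Robo receptors, fell in *Pds5b*-/- siGLO. It was at 132, 270 and 264 in WT siGLO, at 72.8, 108 and 101 in *Pds5b*-/- siGLO and at 170, 246 and 252 in *Pds5a*-/- siGLO. The log2 fold change against WT siGLO was -1.23 ± 0.31 (edgeR adjusted p = 0.00584). In the same comparison 2 of the 5 tested fibroblast markers, *Postn* and *Thy1*, fell and 0 rose, with a median of -1.73, and their part in the change of *Slit3* was not tested. The log2 fold change between the knockouts, *Pds5a*-/- relative to *Pds5b*-/-, was 1.24 ± 0.31 (edgeR adjusted p = 0.00534), and each call was lost in 6 of 12 alternative fits. Both were lost when any of the 3 *Pds5b*-/- libraries was left out, the first also without WT siGLO replicate 2 or 3 and the second without *Pds5a*-/- siGLO replicate 2 or 3.

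Of the 19 semaphorins tested, 4 rose and 3 fell after dual depletion, against 17.4% and 14.6% of all genes. Among the called was 1 secreted class 3 gene, *Sema3e*. It was at 608, 656 and 715 in WT siGLO and at 1033, 972 and 911 after dual depletion, a change of 0.56 ± 0.12 on the log2 scale (edgeR adjusted p = 0.000871). *Sema5b* was at 385, 439 and 353 in WT siGLO, at 258, 200 and 238 in *Pds5a*-/- siGLO and at 350, 374 and 322 in *Pds5b*-/- siGLO. It fell in *Pds5a*-/- by 0.76 on the log2 scale, with a standard error of 0.14 and an adjusted p of 0.000296, and was lower in *Pds5a*-/- than in *Pds5b*-/- by -0.59 ± 0.14, a call lost without *Pds5a*-/- siGLO replicate 2 or *Pds5b*-/- replicate 2. *Sema4a* moved in the same direction, from 216, 185 and 189 in WT siGLO to 150, 108 and 128 in *Pds5a*-/- siGLO, and was at 206, 196 and 209 in *Pds5b*-/- siGLO. Its call against WT siGLO was lost without WT siGLO replicate 1 and without *Pds5a*-/- siGLO replicate 2 or 3, and that between the knockouts without *Pds5a*-/- siGLO replicate 2.

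*Sema7a*, a membrane-anchored semaphorin, rose in *Pds5a*-/- and after dual depletion. It was at 69.6, 54.1 and 60.4 in WT siGLO, at 99.5, 105 and 100.2 in *Pds5a*-/- siGLO and at 141, 154 and 157 after dual depletion, and these ranges did not overlap. The log2 fold changes were 0.72 ± 0.17 (adjusted p = 0.00218) and 1.29 ± 0.16 (9.51e-07) in edgeR, and siPds5b against siGLO in *Pds5a*-/- was not called (0.57, adjusted p = 0.0152). The call in *Pds5a*-/- was lost in 4 of 12 alternative fits, including without WT siGLO replicate 2 or 3 and without *Pds5a*-/- siGLO replicate 2. *Sema4b*, at 882, 856 and 795 in WT siGLO and 1112, 1125 and 1071 in *Pds5a*-/- siGLO, rose by 0.39 ± 0.09 in *Pds5a*-/-, 0.34 ± 0.09 in *Pds5b*-/- and 0.38 ± 0.09 after dual depletion. These calls were lost in 3, 5 and 2 of 12 alternative fits, without WT siGLO replicate 3 in all of them, without its replicate 2 in both knockouts, and without *Pds5a*-/- siGLO replicate 2, *Pds5b*-/- replicate 1 or 2, or *Pds5a*-/- siPds5b replicate 3 in their own comparisons. *Sema6b* was higher in *Pds5a*-/- than in *Pds5b*-/-, at 111, 140 and 190 against 58.1, 88.7 and 78.6, a log2 fold change of 0.97 ± 0.22 (0.00202), and this call was lost without *Pds5a*-/- siGLO replicate 3 and without *Pds5b*-/- replicate 1.

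Of the 9 plexins, the receptors of semaphorins, 4 rose and 1 fell after dual depletion, against 17.4% and 14.6% of all genes. *Plxnc1* was at 30.1, 55.2 and 25.6 in WT siGLO, at 69.1, 58.9 and 57.8 in *Pds5a*-/- siGLO and at 136, 144 and 133 after dual depletion. Its log2 fold change was 1.92 ± 0.26 against WT siGLO (adjusted p = 2.01e-06) and 1.15 ± 0.24 against *Pds5a*-/- siGLO (0.00203) in edgeR. *Sema7a* encodes a known ligand of plexin C1, and both genes were higher after dual depletion than in WT siGLO. *Plxna4* was at 6.87, 10.1 and 10.8 in WT siGLO and at 24, 53.9 and 44.9 after dual depletion (2.13 ± 0.37, adjusted p = 5.8e-05). *Plxnb2* fell from 2957, 3787 and 3466 to 1935, 2134 and 2591, a log2 fold change of -0.62 ± 0.12 (0.000404). *Plxnb1* was at 679, 795 and 819 in WT siGLO and at 995, 1256 and 1141 in *Pds5b*-/- siGLO (0.57 ± 0.11, 0.000402).

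**Figure D3:**
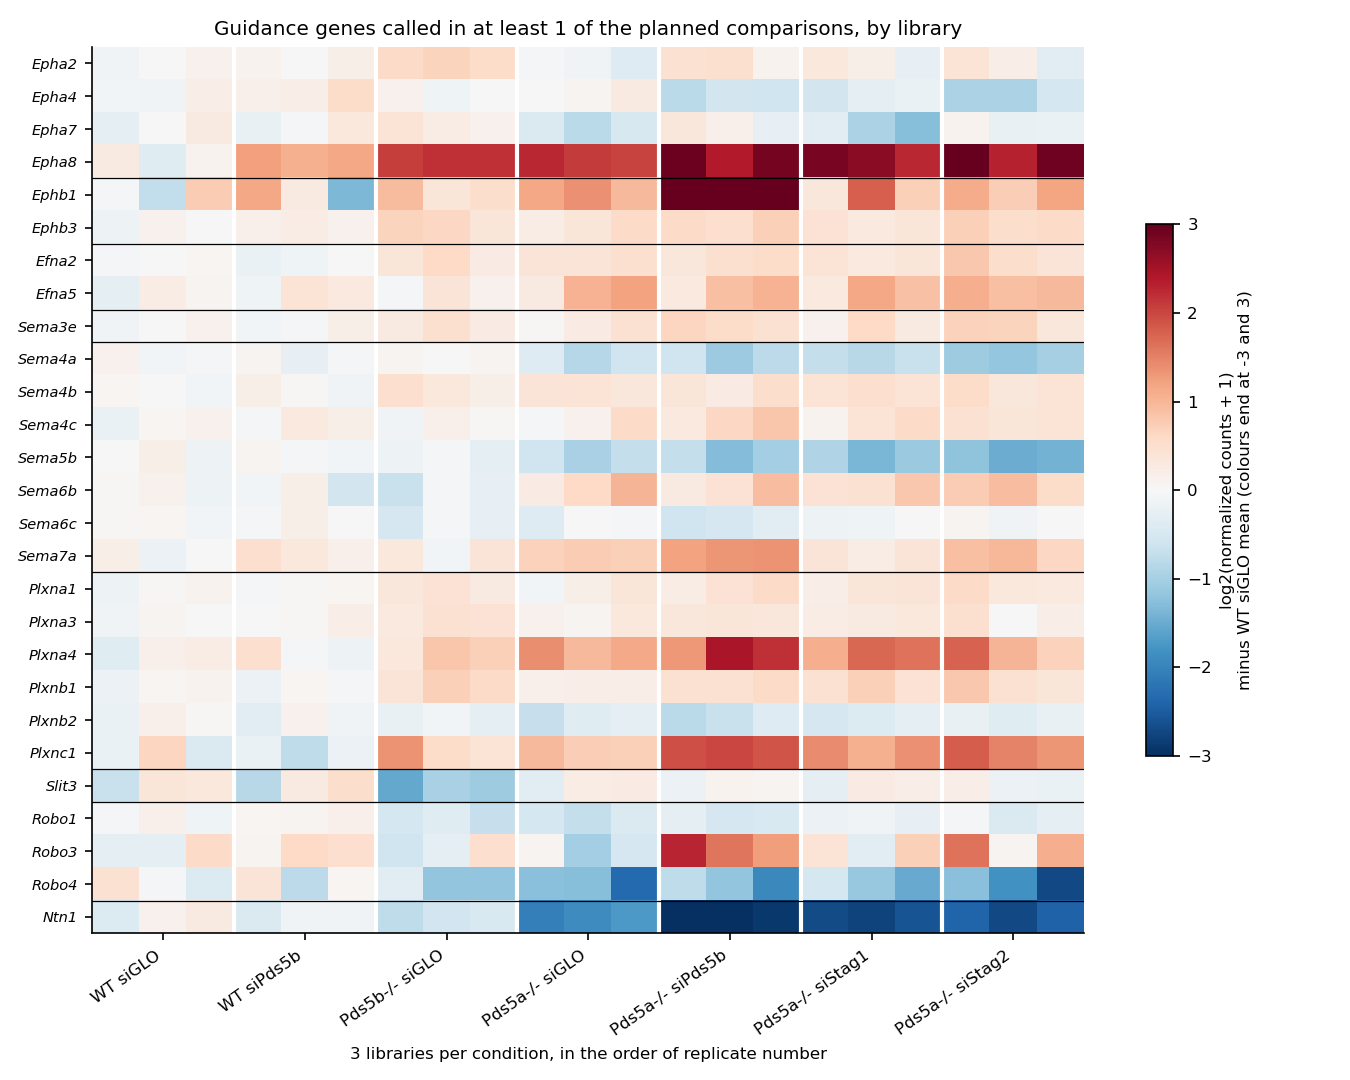
Difference of log2(normalized counts + 1) from the WT siGLO mean in each of the 21 libraries, for the 27 genes called in at least 1 planned comparison, with red higher and blue lower. *Epha8* is red in every *Pds5b*-/- and *Pds5a*-/- library, and *Ntn1* is darkest in the *Pds5a*-/- siPds5b libraries.

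The siRNAs were then compared within a genotype, where libraries of the same replicate number deviated together and the number was also fitted as a block. Values below are without the block unless it is named. In WT, siPds5b called none of the 58 members, and 0.00668% of all genes were called. At an unadjusted p under 0.05 there were 3 members, a count without the share of all genes at that threshold. DESeq2 also called 0, and 0.0199% of all genes. In *Pds5a*-/- mESCs siPds5b raised 3 members and lowered 2, or 8.62% against 7.59% of all genes (4% higher and 3.59% lower), and none of the 5 overlapped, as for 31.2% of all genes. These were *Robo3*, *Ephb1* and *Plxnc1*, and *Ntn1* and *Epha4*. The log2 fold change of *Ntn1* was -1.35 ± 0.17 and that of *Epha4* -0.78 ± 0.14 (edgeR adjusted p = 1.47e-05 and 0.000316). The count was 3 without *Pds5a*-/- siGLO replicate 2, with *Plxnc1* and *Robo3* lost, and *Plxnc1* was also lost without *Pds5a*-/- siGLO replicate 3.

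The difference between the effects of siPds5b in both genotypes was tested as an interaction. It was called for 2 members, 3.45% of the 58 against 1.48% of all genes (0.896% lower). *Epha4* was the firmer, at -1.08 ± 0.19 (edgeR adjusted p = 0.00142), and held in all 18 alternative fits. *Ntn1* was at -1.12 ± 0.23 (0.0065), and its call was lost in 9 of the 18 fits, including without WT siGLO replicate 2, WT siPds5b replicate 2 or 3, *Pds5a*-/- siGLO replicate 2 or 3, and *Pds5a*-/- siPds5b replicate 1 or 2.

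Depletion of STAG1 in *Pds5a*-/- mESCs called none of the members, and 0.0936% of all genes were called (0.0134% higher and 0.0802% lower). At an unadjusted p under 0.05 there were 11. That count has no share of all genes at the same threshold beside it and is not read as a result. DESeq2 called 1, *Ntn1*, and 0.563% of all genes. *Ntn1* was at 241, 226 and 259 with siStag1, all below *Pds5a*-/- siGLO. No overlap was seen for 15.7% of all genes, and its difference on the log2 scale was -0.81 ± 0.17 (edgeR adjusted p = 0.037). With the replicate block it was called, at -0.80 ± 0.12 and an edgeR adjusted p of 0.000758, and 0.321% of all genes were called. Depletion of STAG2 called *Epha4* alone, 1.72% against 2.24% of all genes (1.27% lower), at -0.93 ± 0.14 (0.000311), without overlap as for 26.4% of all genes. With the block, *Ntn1* (-0.62 ± 0.12, edgeR adjusted p = 0.00139) and *Sema5b* (-0.62 ± 0.14, 0.00401) were called as well, and 4.52% of all genes were called. *Ntn1* was at 294, 237 and 289 with siStag2. Without *Pds5a*-/- siStag2 replicate 2 there were 2 calls, with *Epha8* added.

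After these values were seen, siPds5b was also compared with siStag1 and siStag2 within *Pds5a*-/- mESCs. Relative to siStag1, 3 members were higher with siPds5b, 5.17% against 7.36% of all genes (3.83% higher and 3.54% lower), and none overlapped, as for 33.2% of all genes. They were *Ephb1* (2.40 ± 0.42, edgeR adjusted p = 0.000368), *Sema7a* (0.97 ± 0.16, 0.000218) and *Epha7* (0.89 ± 0.21, 0.00622). Relative to siStag2, *Ephb1* alone was called (2.43 ± 0.42, 0.000644), 1.72% against 3.96% of all genes (2.04% higher), without overlap as for 26.6% of all genes. With the block the counts were 6 and 5, and *Ntn1* was then lower with siPds5b in both (-0.55 ± 0.13 and -0.73 ± 0.13, adjusted p = 0.00374 and 0.000434). The call of *Epha7* was lost without *Pds5a*-/- siPds5b replicate 1 or 2 and without *Pds5a*-/- siStag1 replicate 2 or 3, and relative to siStag2 there were 4 calls without *Pds5a*-/- siPds5b replicate 3.

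**Figure D4:**
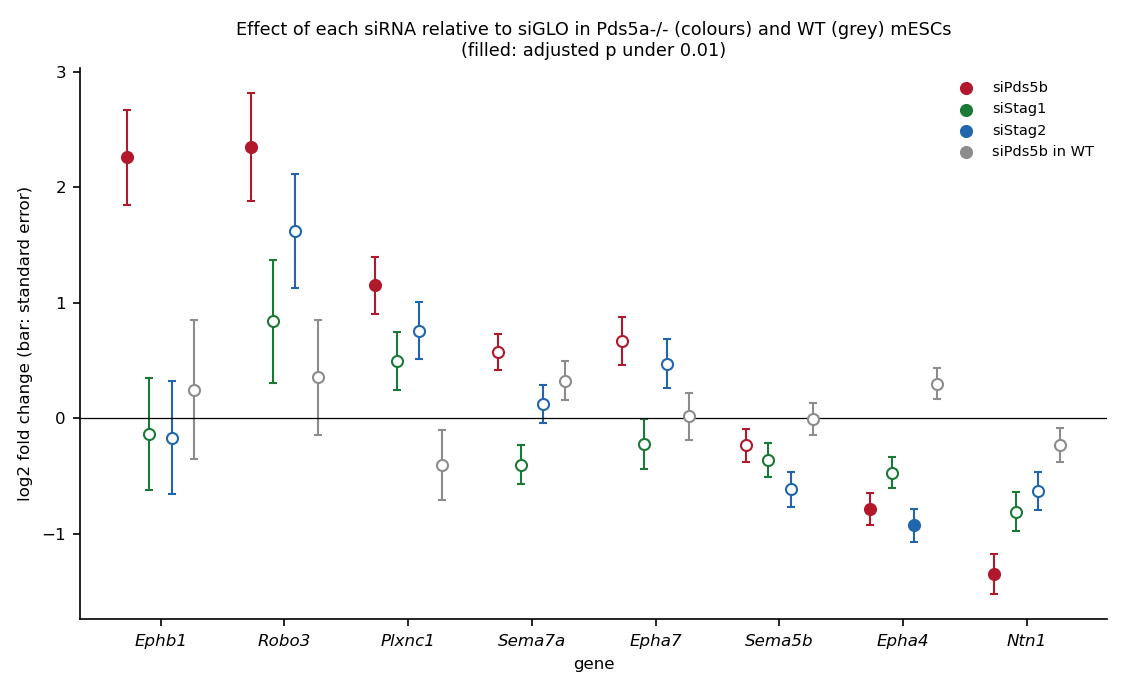
Log2 fold change with its standard error (vertical axis) for siPds5b, siStag1 and siStag2 in *Pds5a*-/- mESCs and for siPds5b in WT, each relative to siGLO in the same genotype, with filled points at an edgeR adjusted p under 0.01. *Ephb1* was at 2.26 with siPds5b and at -0.14 and -0.17 with siStag1 and siStag2, while *Epha4* was below 0 with each siRNA in *Pds5a*-/- and at 0.30 in WT.

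The wider pathway was read from a list of 67 other axon guidance genes (co-receptors, further cues and adhesion molecules, and intracellular effectors), of which 64 were tested. After dual depletion 20 of them rose and 1 fell, 32.8% against 32% of all genes (17.4% higher and 14.6% lower), and their median log2 fold change was 0.35 against 0.00. In *Pds5a*-/- 12 rose and 4 fell (25% against 17.8%), and in *Pds5b*-/- 7 rose and 4 fell (17.2% against 18.2%). In *Pds5a*-/- mESCs siPds5b raised 4 and lowered 2 (9.38% against 7.59%). *Srgap3*, which encodes a GTPase-activating protein that acts downstream of Robo receptors, was at 99.7, 91.2 and 71.9 in WT siGLO and at 205, 253 and 340 in *Pds5a*-/- siGLO, and at 269, 342 and 383 after dual depletion (1.92 ± 0.20, edgeR adjusted p = 9.14e-08). *Mical1*, a monooxygenase of the semaphorin pathway, fell from 547, 554 and 485 to 170, 191 and 191 (-1.52 ± 0.13, 2.3e-09). *Mical2*, its relative, rose in the same comparison by 1.35 ± 0.23. *Pak3* (1.85 ± 0.23) and *Lingo1* (1.70 ± 0.29) were the other 2 of the 3 largest increases. *Dcc*, the receptor of netrin-1, had normalized counts between 10.1 and 21.5 in WT siGLO, between 1.93 and 2.81 in *Pds5a*-/- siGLO and between 8.97 and 20.7 after dual depletion. It was called lower in *Pds5a*-/- (adjusted p = 0.00136) and higher with siPds5b in *Pds5a*-/- mESCs (0.00221), and was named after its values were seen.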

How the data were processed

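Poly-A RNA of 21 mESC libraries, 3 in each of 7 conditions, was sequenced, and the authors mapped them with STAR (build mm10) and used DESeq2 on the counts, as their methods state. The counting tool, gene annotation and use of strand are not given in the sources used here. The deposited values are raw counts per gene symbol. Where strand was not used, reads of genes that share exons with an antisense gene cannot be told apart; this concerns *Ntn5* (23.4% of exon bases), *Efna3* (14.1%), *Plxna1* (10.7%), *Efna4* (10.5%), *Sema4c* (7.3%) and *Epha1* (6.0%).

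Conditions were taken from the labels. The counts were tested with edgeR 4.0.16 in R 4.3.3 (filter for enough counts, TMM, 1 robust quasi-likelihood model over 21 libraries, Benjamini-Hochberg over 14963 genes, called at an adjusted p under 0.01). Normalized counts are TMM counts scaled to 19816922, the average effective library size. Standard errors are the size of the log2 fold change divided by the square root of F. Total counts were between 17311090 and 23989198, and replicates differed by a mean chi-square per gene of 4.98 to 26.7, so none was a copy. The members and lists were chosen with earlier results of these data known. Named with counts in each library were the highest member per kb in each family, up to 4 called members per direction and comparison whose average log2 CPM was not below 0, and those with a called interaction; of the other genes, up to 3 per direction. Positions and exon lengths are those of GENCODE on GRCm38 (mm10).

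Libraries of the same replicate number deviated together. The median correlation of deviations from the condition means was 0.174 over 63 same-number pairs and -0.082 over 126 others (12176 genes). Every pair was above 0.1 for siPds5b in WT, for the siRNAs against siGLO in *Pds5a*-/- mESCs and for siPds5b against siStag1 or siStag2 there. In these the number can be read as a pairing, which comes from the data and not from the labels. The main fits ignore it. Calls, fold changes, standard errors and figures are without the block unless the block is named. Alternatives were DESeq2 1.42.0, RLE normalization, scaling by library size, no filter, a log2 fold change of at least 1, only the conditions compared, the replicate block and leaving out each library. The edgeR model without the block was tested on simulated data for *Pds5a*-/- siGLO relative to WT siGLO. The other comparisons and fits were not tested in this way. Figures were drawn with matplotlib 3.10.9 in Python 3.11.15.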

Additional observations from a re-analysis of the deposited data

Results flagged for a closer look

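The effect of siPds5b differed between *Pds5a*-/- and WT mESCs for 2 members by a test of the difference itself, the interaction in edgeR. It was called for 1.48% of all genes. For *Epha4* the log2 fold change in *Pds5a*-/- minus that in WT was -1.08 (adjusted p = 0.00142), from -0.78 in *Pds5a*-/- and 0.30 in WT. For *Ntn1* it was -1.12 (adjusted p = 0.0065), from -1.35 and -0.24. The call of *Epha4* held in all 18 alternative fits, that of *Ntn1* in 9 of 18.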

How the results depend on the processing

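Counts in this section without a share of all genes show only how the number of called members moves with the setting. They are not read as results about the members. When calls also needed a log2 fold change of 1 or more in size, 3 members were called in *Pds5a*-/-, 2 in *Pds5b*-/-, 2 between the knockouts, 8 after dual depletion, 0 with siStag2 and 1 for siPds5b relative to siStag1. DESeq2 called 1 with siStag1, 3 with siStag2 and 4 for siPds5b relative to siStag2, against 0.563%, 5.89% and 5.77% of all genes. For siPds5b relative to siStag2, no filter on low counts gave 3. With only the conditions compared, 6 were called in *Pds5a*-/- and 1 by the interaction, which was also 1 with scaling by library size. With the replicate block, 1 member was called with siStag1, 3 with siStag2, and 6 and 5 for siPds5b relative to siStag1 and siStag2. Of all genes, 0.321%, 4.52%, 10.3% and 5.95% were called in that order. The block also gave 12 calls in *Pds5a*-/-, 13 in *Pds5b*-/-, 12 between the knockouts, 23 after dual depletion and 3 by the interaction. It called 21.2%, 22.2%, 23.7%, 36% and 2.6% of all genes in that order. In these comparisons the numbers are not shown to pair the libraries, and the block changed no other count. *Efnb1* was called with it in *Pds5a*-/- (adjusted p = 3.62e-05).

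Leaving out 1 library gave 4 to 12 calls in *Pds5a*-/-, 4 to 9 in *Pds5b*-/-, 3 to 9 between the knockouts, 15 to 21 after dual depletion, 3 to 5 for siPds5b in *Pds5a*-/-, 1 to 2 with siStag2 and by the interaction, 2 to 3 and 1 to 4 for siPds5b relative to siStag1 and siStag2, and 0 for siStag1 and for siPds5b in WT. Between the knockouts there were 3 without *Pds5a*-/- siGLO replicate 2, 5 without its replicate 3, 5 without *Pds5b*-/- replicate 1 and 4 without its replicate 2. Of the 378 refits of single named members, 269 kept the call, 109 lost it and 0 changed direction. The cause was not tested. Low counts limit *Ephb1*, *Robo3*, *Plxna4* and *Dcc*, whose standard errors were between 0.32 and 0.87.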
